A study of Mus musculus with 7 samples.

Results

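The subunits of the transcription factor NF-kB and the proteins that restrain them were followed at the RNA level in CD4+ T cells of mouse spleen. The group holds 10 genes of the 19589 in the table, taken by symbol, with earlier results of these data known. They are the 5 subunit genes Nfkb1, Nfkb2, Rel, Rela and Relb, and the 5 inhibitor or regulator genes Nfkbia, Nfkbie, Nfkbiz, Bcl3 and Tnfaip3. All 10 had reads in every library, and all 10 passed the filters on low values in both tests below. The cells came from 3 mice labelled RT, which the series describes as Tet2-/- and carrying G17V RHOA, and from 4 mice labelled WT, all C57BL/6. Tet2 encodes an enzyme that oxidises 5-methylcytosine in DNA, and G17V is a change in the small GTPase RHOA found in angioimmunoblastic T cell lymphoma. The labels give no treatment other than sorting and no age, and they do not say which promoter or Cre drives either allele or which cells of the RT mice carry them. The question was how the levels of these 10 genes in RT cells compare with those in WT cells.

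NF-kB proteins bind DNA as pairs of subunits that share a Rel homology domain. In resting cells IkB proteins such as the products of Nfkbia and Nfkbie hold these pairs in the cytoplasm. Engagement of the T cell receptor or of a costimulatory receptor activates the IkB kinase complex, the IkB proteins are degraded, and the freed pairs enter the nucleus. Several of their target genes encode the inhibitors themselves, which closes a feedback loop. A second, non-canonical branch uses the kinase encoded by Map3k14 to process the Nfkb2 product, the partner of RelB.

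The deposited values are RPKM, reads per kilobase of gene, scaled to the size of the library. The whole reads behind them were recovered from the steps of the values. The totals behind the values were 21800352 reads in RT1, 18566233 in WT1 and 20033254 in WT2, but only 105763 to 121659 in RT2, RT3, WT3 and WT4. These sets are called deep and shallow here, and each holds both genotypes. A level is given below as RPM, the reads of a gene per 1000000 recovered reads of its library, which compares 1 gene across libraries, and as RPKM where genes are compared with each other. In a shallow library 1 read was worth 8.97 to 10.4 RPM, so that Bcl3, with 1 read in each of WT3 and WT4, rests on very few reads there. Tet2 had 5.03 RPKM in RT1, 0.803 RPKM in RT2 and 0 in RT3, with WT libraries between 2.79 and 6.32 RPKM. A value over the whole gene does not show a deletion of part of it, so it does not check the labels. Of 8 CD4 T cell marker genes none was at 0 in all libraries, and Cd4 stood at 972 to 2037 RPM in RT and at 1009 to 1170 RPM in WT. Their summed level was 3810, 8335 and 8041 RPM in RT1 to RT3, against 4334 to 4870 RPM in WT. In the test on reads described below, 0 of the 8 were called higher and 1, Cd5, lower, against 9.44% and 8.23% of all genes.

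By the test on recovered reads, the RNA of 4 of the 5 inhibitor and regulator genes and of the subunit gene Nfkb2 was higher in RT cells. Relb passed too, but its RNA was higher in the deep libraries alone. The inhibitor gene Nfkbia and the canonical subunit genes Rela, Rel and Nfkb1 did not pass. None of the 10 genes passed the other test, on log2(RPKM + 1), although that was the one planned. In the test on recovered reads (limma voom with a term for the library set) 6 of the 10 genes rose and 0 fell. They were Nfkb2, Relb, Nfkbie, Nfkbiz, Bcl3 and Tnfaip3. Over all 5880 genes tested this way 17.7% were called, 9.44% higher and 8.23% lower. At 2-fold or more 4 of the 10 rose, against 6.12% of all genes. In the test on log2(RPKM + 1) (limma with the same terms), which gives every library the same weight, 0 of the 10 passed, where 0.271% of all 9605 genes were called, 0.219% higher and 0.0521% lower. Counted by unadjusted p (under 0.05) that test had 6 of the 10, all higher, against 13.0% of all genes. The test on reads had 8 of the 10, of which Nfkb1 alone was lower, against 31.6%. "Rose" and "fell" refer below to the test on reads at an adjusted p under 0.05. That test was run beside the planned one and chosen with earlier results of these data known. RT1 is the single deep library of its genotype, and with RT1 left out the test on reads (limma voom) called 0 of 5880 genes, with 8.40% at an unadjusted p under 0.05, while that on log2(RPKM + 1) called 446 genes and none of the 10. Each call on reads named below is therefore lost when RT1 alone is left out. A separate fit on the reads of RT2, RT3, WT3 and WT4 only called 186 genes higher and 250 lower. Of the 10 genes it called Nfkbia and Tnfaip3, both higher, and none of the others. With RT1 alone left out, the log2 fold changes of the 6 genes were 0.47 for Nfkb2, -0.36 for Relb and 1.11 for Nfkbie. They were 0.64 for Nfkbiz, 1.94 for Bcl3 and 0.93 for Tnfaip3.

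**Figure D1:**
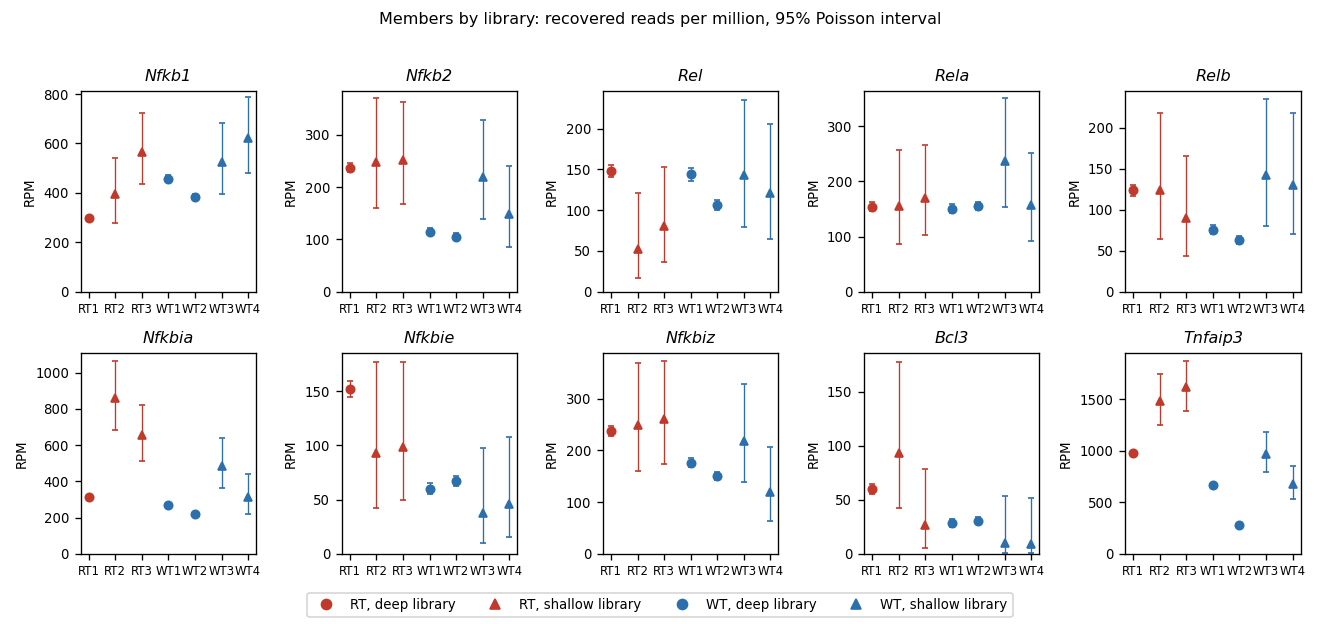
RPM of each of the 10 genes (vertical axis, from 0) in each library (horizontal axis), RT in red left of WT in blue, with circles for deep and triangles for shallow libraries; bars are exact 95% Poisson intervals and cover counting error only. For Nfkb2, Nfkbie, Nfkbiz and Tnfaip3 every RT library lies above every WT library.

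**Figure D2:**
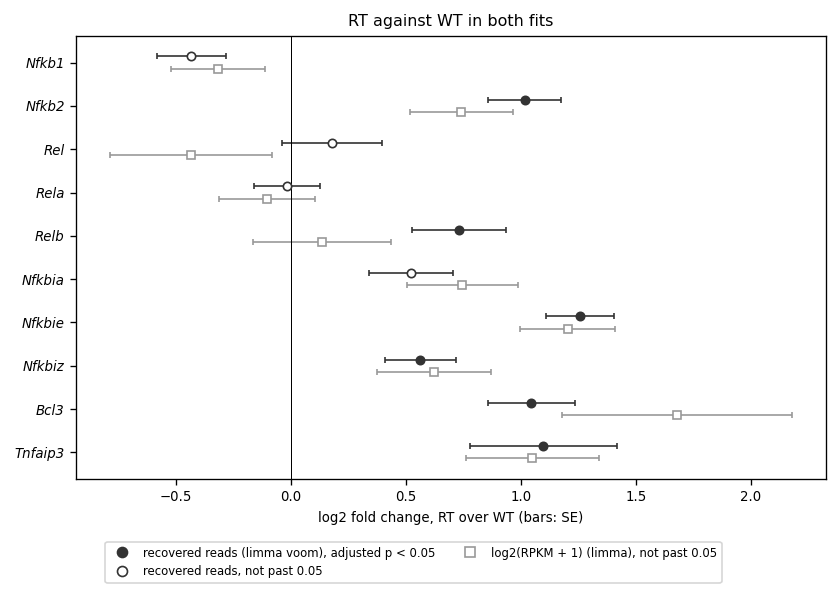
Log2 fold change of RT over WT (horizontal axis; bars are SE) for each of the 10 genes, from the recovered reads (circles, filled where the adjusted p is under 0.05) and from log2(RPKM + 1) (squares). Nfkbie is the farthest from 0 relative to its SE in both, and Rela lies at 0.

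Among the subunits, Nfkb2 showed the largest difference. It encodes p100, which is processed to the DNA-binding p52 and, unprocessed, acts as an IkB protein. Nfkb2 stood at 237, 249 and 251 RPM in RT1 to RT3, against 115, 105, 219 and 148 RPM in WT1 to WT4. Every RT library was above every WT library, and WT3 came closest. Nfkb2 rose by 1.02 ± 0.16 (log2, SE; limma voom adjusted p = 0.00467), while on log2(RPKM + 1) the difference was 0.74 ± 0.22 (limma adjusted p = 0.236).

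Relb encodes the partner of p52. It stood at 123, 124 and 89.7 RPM in RT1 to RT3, against 75.7, 62.7, 143 and 130 RPM in WT1 to WT4. RT1 was above both deep WT libraries, and both shallow RT libraries were below both shallow WT libraries. Relb rose by 0.73 ± 0.20 (log2, SE; limma voom adjusted p = 0.0425), with 0.14 ± 0.30 on log2(RPKM + 1) (limma adjusted p = 0.869). The call was lost when any of RT1, RT3, WT1, WT2 or WT4 was left out, and without RT1 the value turned to -0.36. B cells and myeloid cells also express Relb, and the levels of their markers differed between libraries. The summed level of 8 B cell genes was 402, 156 and 233 RPM in RT1 to RT3, against 274, 213, 1512 and 1732 RPM in WT1 to WT4. That of 7 myeloid genes was 3128, 321 and 476 RPM in RT1 to RT3, against 980, 646, 1398 and 1343 RPM in WT1 to WT4. Myeloid genes were thus highest in RT1. Of them Adgre1, Cd68 and Mpeg1, 3 of 6 tested, rose on reads, where 9.44% of all genes did. B cell genes, of which 0 of 8 passed, were highest in WT3 and WT4. Plasma cell genes (260 to 451 RPM in RT, 112 to 1713 RPM in WT), erythroid genes (171 to 404 RPM in RT, 111 to 1760 RPM in WT) and dendritic cell genes (0 to 83.3 RPM in RT, 52.1 to 435 RPM in WT) were highest in WT3 and WT4 too. NK and CD8 T cell genes summed to 29.5, 187 and 89.7 RPM in RT1 to RT3, against 62.2 to 83.3 RPM in WT. Of 3 dendritic cell genes tested on reads, Flt3 and Siglech fell and 0 rose, where 8.23% of all genes fell and 9.44% rose. At 0 in all RT libraries were 2 of 7 dendritic cell genes, 2 of 6 NK and CD8 T cell genes and 1 of 5 plasma cell genes. Among them were Cd8a, which marks CD8 T cells, and Siglech, which marks plasmacytoid dendritic cells. The part of these other cell types in the values of the members was not tested. In bulk RNA fewer cells of a type and less RNA per cell cannot be told apart.

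Nfkb1, Rela and Rel encode the canonical subunits p105 (processed to p50), p65 and c-Rel, and none of them rose. Nfkb1 stood at 297, 394 and 565 RPM in RT1 to RT3, against 458, 383, 523 and 620 RPM in WT1 to WT4. The groups overlapped, with RT1 the lowest of all. Its log2 fold change was -0.43 ± 0.15 (limma voom adjusted p = 0.0861), and of the alternatives run on reads it was called lower only without WT2, at -0.54 (limma voom adjusted p = 0.0204). Without RT1 it was at -0.26 (limma voom adjusted p = 0.904). Rela stood at 154, 156 and 171 RPM in RT1 to RT3, against 150, 155, 238 and 157 RPM in WT1 to WT4. The deep libraries lay within a few RPM of each other, and its log2 fold change was -0.02 ± 0.14 (limma voom adjusted p = 0.953). Rel stood at 148, 51.8 and 80.8 RPM in RT1 to RT3, against 144, 106, 143 and 120 RPM in WT1 to WT4. RT1 was the highest library and RT2 and RT3 the lowest, but RT2 and RT3 rest on 5 and 9 reads. The log2 fold change of Rel was 0.18 ± 0.22 on the reads (limma voom adjusted p = 0.607) and -0.43 ± 0.35 on log2(RPKM + 1) (limma adjusted p = 0.624), with opposite signs.

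The IkB proteins proper differed in how far the libraries separated. Nfkbie encodes IkB epsilon, which retains c-Rel and p65 in the cytoplasm. It stood at 152, 93.3 and 98.7 RPM in RT1 to RT3, against 59.8, 67.0, 38.0 and 46.3 RPM in WT1 to WT4. Every RT library was above every WT library, in either set. Nfkbie rose by 1.26 ± 0.15 (log2, SE; limma voom adjusted p = 0.00149), and the difference on log2(RPKM + 1) was 1.20 ± 0.21 (limma adjusted p = 0.0848), the smallest p among the 10 genes in both tests.

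Nfkbia encodes IkB alpha, the IkB protein that is degraded and resynthesised fastest. It stood at 311, 860 and 655 RPM in RT1 to RT3, against 268, 217, 485 and 315 RPM in WT1 to WT4. The RT libraries were above the WT libraries of their own set, but RT1 was below both shallow WT libraries. Its log2 fold change was 0.52 ± 0.18 (limma voom adjusted p = 0.0886), just outside the threshold, and 0.75 ± 0.24 on log2(RPKM + 1) (limma adjusted p = 0.263). It was called higher without WT1, at 0.68 (limma voom adjusted p = 0.0331), and in the shallow libraries taken alone, at 0.93 ± 0.28 (limma voom adjusted p = 0.0276).

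Bcl3 and Nfkbiz encode atypical IkB proteins, which act in the nucleus on p50 and p52 pairs and can raise as well as lower transcription. Bcl3 stood at 59.7, 93.3 and 26.9 RPM in RT1 to RT3, against 28.3, 30.7, 9.51 and 9.26 RPM in WT1 to WT4. Each RT library was above the WT libraries of its own set, with RT3, on 3 reads, just below both deep WT libraries. Bcl3 rose by 1.04 ± 0.19 (log2, SE; limma voom adjusted p = 0.00845), and it was at 1.94 without RT1. On log2(RPKM + 1) its difference was 1.68 ± 0.50 (limma adjusted p = 0.225). Nfkbiz stood at 237, 249 and 260 RPM in RT1 to RT3, against 176, 150, 219 and 120 RPM in WT1 to WT4. All RT libraries were above all WT libraries, by a margin that for WT3 is within counting error. Nfkbiz rose by 0.56 ± 0.15 (log2, SE; limma voom adjusted p = 0.0407), and the call was lost without any of RT1, RT3, WT3 or WT4. Its difference on log2(RPKM + 1) was 0.62 ± 0.25 (limma adjusted p = 0.357).

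Tnfaip3 encodes A20, a ubiquitin-editing enzyme that shuts off signalling to the IkB kinase complex. It stood at 976, 1483 and 1615 RPM in RT1 to RT3, against 664, 283, 970 and 676 RPM in WT1 to WT4. Every RT library was above every WT library, although RT1 and WT3 nearly met. Tnfaip3 rose by 1.10 ± 0.32 (log2, SE; limma voom adjusted p = 0.0480), and the difference on log2(RPKM + 1) was 1.05 ± 0.29 (limma adjusted p = 0.198). The deep WT libraries differed by more than 2-fold from each other, and without WT2 the value was 0.67 (limma voom adjusted p = 0.00768). The call was lost without any of RT1, RT2, RT3, WT3 or WT4. In the fit on RT2, RT3, WT3 and WT4 only, Tnfaip3 was called higher, at 0.93 ± 0.23 (log2, SE; limma voom adjusted p = 0.00433). Nfkbia, Nfkbiz and Tnfaip3 are also early response genes, and a list of 14 other early response and handling genes summed to 9303, 12016 and 7305 RPM in RT1 to RT3, against 4844, 5688, 9265 and 8806 RPM in WT1 to WT4. Of 13 of them tested, Hspa1a (2.58 ± 0.46), Dusp1 (1.27 ± 0.25) and Egr2 (1.02 ± 0.29) rose and 0 fell (log2, SE). Over all genes tested on reads 9.44% rose and 8.23% fell. Hspa1a has a near-identical copy, so its reads are uncertain. Their part in the result was not tested.

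Across the 10 genes, 4 had every RT library above every WT library in RPM, which held for 5.73% of the 5880 genes tested, and 0 had every RT library below every WT library, which held for 5.61%. Above all WT libraries of the same set were 6 of the 10, against 11.7% of all genes. In the deep set alone RT1 was above WT1 and WT2 for 8 of the 10 (36.1% of all genes), and in the shallow set alone RT2 and RT3 were above WT3 and WT4 for 6 of the 10 (22.8%). The 5 inhibitor and regulator genes together held 1736, 2778 and 2656 RPM in RT1 to RT3, against 1196, 747, 1722 and 1167 RPM in WT1 to WT4. Their lowest RT value and highest WT value were close. The 5 subunit genes together held 959, 975 and 1158 RPM in RT1 to RT3, against 943, 812, 1265 and 1176 RPM in WT1 to WT4, so the groups overlapped. The median log2 fold change on reads was 1.04 for the inhibitors and regulators and 0.18 for the subunits, and -0.03 for all genes tested.

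The deep and the shallow libraries give separate values, since they share no library. In the deep set RT1 was set over the mean of WT1 and WT2, and in the shallow set the reads of RT2 and RT3 were set over those of WT3 and WT4. The ratio for Nfkbie was 2.40 in the deep set and 2.28 in the shallow set, with an exact 95% interval of 0.992 to 5.68 for counting error in the shallow set. For Tnfaip3 the ratios were 2.06 deep and 1.89 shallow (1.57 to 2.29). For Nfkbiz they were 1.46 deep and 1.51 shallow (0.97 to 2.37). These 3 genes had like ratios in both sets. For Nfkbia the ratios were 1.28 deep and 1.88 shallow (1.44 to 2.48). For Nfkb2 they were 2.15 deep and 1.37 shallow (0.885 to 2.13). For Bcl3 they were 2.02 deep and 6.15 shallow, where 12 reads against 2 leave an interval of 1.37 to 56.6. For Relb, Rel and Rela the ratio was above 1 in the deep set and below 1 in the shallow set. For Relb the ratios were 1.78 deep and 0.778 shallow (0.426 to 1.40), for Rel 1.18 deep and 0.513 shallow (0.249 to 1.01), and for Rela 1.01 deep and 0.830 shallow (0.512 to 1.34). The shallow intervals of all 3 include 1. For Nfkb1 the ratios were 0.705 deep and 0.849 shallow (0.645 to 1.11), below 1 in both sets. A term for genotype by library set, fitted with limma voom, passed for none of the 10, with adjusted p-values from 0.640 for Relb to 0.974 for Nfkbiz. Over all 5880 genes it was called for 58.

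**Figure D3:**
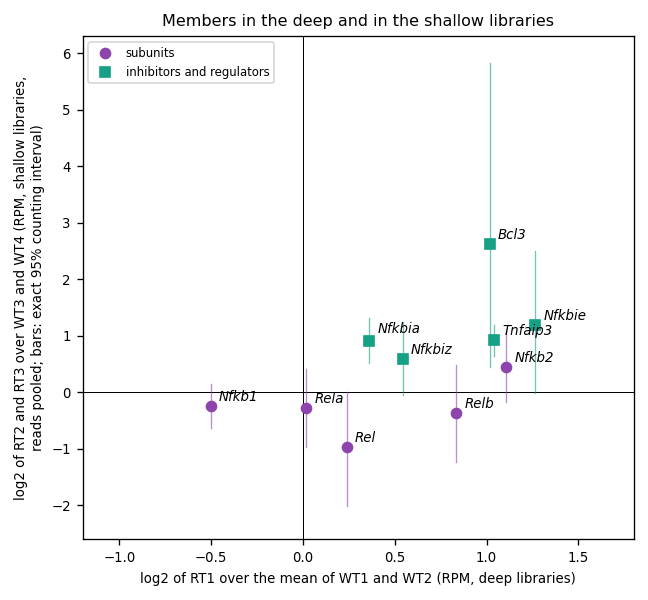
Log2 ratio of RT over WT in RPM in the deep libraries (horizontal axis) against the same ratio in the shallow libraries (vertical axis; bars are exact 95% intervals for counting error), with circles for subunits and squares for inhibitors and regulators. The 5 inhibitors and regulators and Nfkb2 lie above 0 on both axes. Relb, Rel and Rela lie above 0 in the deep and below 0 in the shallow libraries, and Nfkb1 lies below 0 on both axes.

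Ratios between 2 genes of the same library need no scaling to depth. The RPKM ratio of Nfkb2 to Nfkb1, the genes of the processed precursors, was 1.51, 1.19 and 0.840 in RT1 to RT3, against 0.475, 0.520, 0.790 and 0.451 in WT1 to WT4. The ratio was above 1 in 2 RT libraries and in no WT library, and the groups did not overlap, though RT3 and WT3 were close. In the shallow libraries it rests on few reads. Nfkb2 and Nfkb1 had 24 and 38 reads in RT2, 28 and 63 in RT3, 23 and 55 in WT3, and 16 and 67 in WT4. No interval for counting error was fitted to these ratios. That of Relb to Rela was 0.559, 0.559 and 0.368 in RT1 to RT3, against 0.352, 0.283, 0.419 and 0.576 in WT1 to WT4, where the groups overlapped. The RPKM ratio of the inhibitor gene Nfkbia to Rela was 3.40, 9.33 and 6.48 in RT1 to RT3, against 3.01, 2.36, 3.44 and 3.37 in WT1 to WT4. RT2 and RT3 stood apart from all other libraries, and RT1 lay within the WT range.

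**Figure D4:**
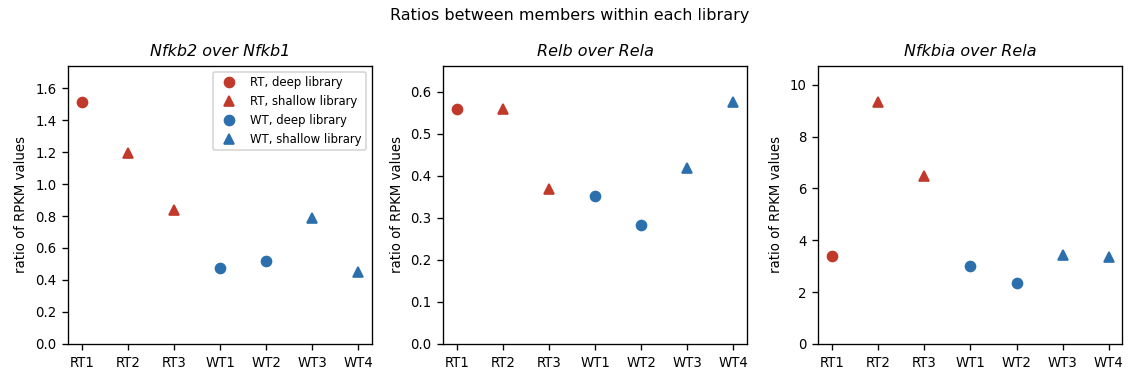
RPKM ratio of Nfkb2 to Nfkb1, of Relb to Rela and of Nfkbia to Rela (vertical axes, from 0) in each library, RT in red left of WT in blue, with circles for deep and triangles for shallow libraries. The first ratio is higher in each of RT1 to RT3 than in WT1 to WT4, with RT3 and WT3 close. The second overlaps between the groups, and the third is high in RT2 and RT3. Counting error is not shown.

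Per length, Nfkbia was the most abundant of the 10 genes in all 7 libraries, with 97.8 to 487 RPKM in RT and 69.6 to 266 RPKM in WT. Tnfaip3 came next in all RT libraries and in WT1 and WT3. At the other end, Rel was the least abundant in all 3 RT libraries, at 6.33 to 9.996 RPKM, and Bcl3 was the least abundant in all 4 WT libraries, at 3.32 to 6.41 RPKM. Nfkb2 had rank 3 in RT1 and RT2 and rank 4 in RT3, against rank 6 in WT1 and rank 5 in the other WT libraries. RPKM values of the 2 library sets are not on 1 scale, so these ranks compare genes within a library.

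All 10 genes lie on separate stretches of the mm10 genome in GENCODE M21. Nfkb1 lies at chr3:135584655-135691547, Nfkb2 at chr19:46304320-46312385 and Rel at chr11:23736847-23770970. Rela lies at chr19:5637483-5648130 and Relb at chr7:19606217-19629438, on the same chromosome as Bcl3 at chr7:19808462-19822770. Nfkbia lies at chr12:55489410-55492647, Nfkbie at chr17:45555703-45563169, Nfkbiz at chr16:55811375-55838899 and Tnfaip3 at chr10:19000910-19015657. Exons of Nfkb2 overlap those of AC114539.1 by up to 501 bases and those of Psd by up to 299 bases, and exons of Bcl3 overlap those of Gm16175 by up to 106 bases, each on the opposite strand. The sources do not say that strand was used in counting, so reads there cannot be assigned. AC114539.1 and Gm16175 have no values in the table used here. Psd stood at 1.27 to 4.42 RPKM in RT and at 0 to 3.39 RPKM in WT, against 36.5 to 70.0 RPKM in RT and 16.6 to 58.8 RPKM in WT for Nfkb2.

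Several of the 10 genes are known NF-kB targets, so their promoters were searched for the letters NF-kB binds. RefSeq promoters (GRCm38.p6, 250 bases before to 50 after each start) were matched for 7 of the 10 genes: Nfkb2, Rel, Rela, Nfkbia, Nfkbie, Bcl3 and Tnfaip3. The degenerate kappaB consensus, read on both strands, occurred in at least 1 promoter of 6 of these 7, Rela being the exception, and in 5.14% of the 27025 genes with a promoter in that table. These are letter matches and not binding sites. The 250 bases before the start are shown for 3 genes that rose and for Nfkbia, 5′ to 3′ on the strand of the gene, with capitals for matches to the consensus on either strand.
Nfkb2, first of 3 starts, chr19:46304487-46304736, plus strand: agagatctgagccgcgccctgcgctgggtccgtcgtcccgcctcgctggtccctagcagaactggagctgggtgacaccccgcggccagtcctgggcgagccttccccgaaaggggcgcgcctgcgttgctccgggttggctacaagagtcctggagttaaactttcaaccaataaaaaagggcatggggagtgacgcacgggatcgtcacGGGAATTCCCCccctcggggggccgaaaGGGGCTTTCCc
Nfkbie, chr17:45555450-45555699, plus strand: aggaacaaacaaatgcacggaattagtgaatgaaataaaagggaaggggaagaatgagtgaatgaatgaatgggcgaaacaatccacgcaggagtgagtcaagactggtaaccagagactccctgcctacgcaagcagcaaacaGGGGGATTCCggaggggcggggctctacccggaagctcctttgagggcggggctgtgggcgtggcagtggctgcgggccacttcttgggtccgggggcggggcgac
Tnfaip3, chr10:19015411-19015660, minus strand: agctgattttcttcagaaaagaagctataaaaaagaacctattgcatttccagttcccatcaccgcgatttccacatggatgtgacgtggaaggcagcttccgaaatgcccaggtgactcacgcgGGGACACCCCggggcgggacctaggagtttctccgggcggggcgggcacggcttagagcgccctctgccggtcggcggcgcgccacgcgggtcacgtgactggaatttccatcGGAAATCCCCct
Nfkbia, chr12:55492648-55492897, minus strand: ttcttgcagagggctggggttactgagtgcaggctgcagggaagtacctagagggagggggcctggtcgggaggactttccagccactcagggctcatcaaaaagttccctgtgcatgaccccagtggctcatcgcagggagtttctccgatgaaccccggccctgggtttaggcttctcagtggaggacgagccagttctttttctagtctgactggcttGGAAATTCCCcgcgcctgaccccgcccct

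In Nfkb2 the overlapping matches begin 39 and 38 bases before the start, with a further match, GGGGCTTTCC, 11 bases before it. In Nfkbia the match GGAAATTCCC begins 29 bases before the start. In Tnfaip3 the matches GGGACACCCC and GGAAATCCCC begin 125 and 12 bases before the start shown. Another start of Tnfaip3, with its promoter at chr10:19011914-19012213, holds 0 matches. In Nfkbie the match GGGGGATTCC begins 106 bases before the start. The match in Bcl3, GGGAAGTCCC, lies just after the start. The promoter of Rel, whose RNA did not rise, holds a match too, GGGAAATCCC, so the letters do not separate the genes that rose from the others.

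The other genes of the pathway were taken from 8 lists of 99 genes, of which 83 were tested on reads. Of these 16 rose and 7 fell, where 9.44% of all 5880 genes tested rose and 8.23% fell. The same shares apply to the counts by list below. Their median log2 fold change was 0.03, where all genes had -0.03. In the test on log2(RPKM + 1) 0 of 96 passed, where 0.271% of all genes did. At an unadjusted p under 0.05 that test had 26, against 13.0% of all genes. The T cell receptor branch to the IkB kinase had 3 of 10 higher, 1 lower and 6 neither. Malt1, which encodes a protease that cleaves A20, rose by 1.37 ± 0.28 (log2, SE), standing at 655, 549 and 529 RPM in RT1 to RT3, against 304, 166, 247 and 426 RPM in WT1 to WT4. Every RT library was above every WT library for Malt1. Zap70, the kinase bound to the receptor chains, rose by 1.09 ± 0.18 and the phospholipase gene Plcg1 by 0.71 ± 0.13. Rasgrp1, a Ras activator downstream of the receptor, fell by 2.06 ± 0.20 on the log2 scale, standing at 104, 72.6 and 117 RPM in RT1 to RT3, against 395, 512, 219 and 333 RPM in WT1 to WT4.

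Of the IkB kinase complex and the kinases above it, 1 of 10 rose, 2 fell and 7 did neither. Ikbkb, the catalytic subunit of the canonical branch, fell by 0.88 ± 0.15 on the log2 scale, standing at 174, 249 and 144 RPM in RT1 to RT3, against 321, 338, 257 and 333 RPM in WT1 to WT4. Map3k14, the kinase of the non-canonical branch, fell by 0.85 ± 0.19 on the log2 scale, and Tank, an adaptor of the related kinase TBK1, rose by 0.84 ± 0.21. Of 11 adaptor and ubiquitin ligase genes 0 rose and 0 fell, with 2 at an unadjusted p under 0.05 in the test on reads and 0 in that on log2(RPKM + 1). Traf5 had the smallest p (log2 fold change -0.61 ± 0.19, limma voom adjusted p = 0.0607), and Rnf31, a subunit of the linear ubiquitin ligase, had -0.50 ± 0.22. Of 8 deubiquitinases and A20 partners N4bp1 rose by 1.002 ± 0.150, Otulin, which removes linear ubiquitin chains, fell by 0.59 ± 0.16 on the log2 scale, and 6 did neither. The other IkB genes tested, Nfkbid and Nfkbib, had log2 fold changes of 0.28 ± 0.24 and -0.09 ± 0.24 and did not pass.

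Receptors that signal to NF-kB had 3 of 11 higher, 1 lower and 7 neither. Tnfrsf4, which encodes the costimulatory receptor OX40, rose by 1.61 ± 0.30, standing at 118, 342 and 628 RPM in RT1 to RT3, against 56.4, 30.9, 105 and 83.3 RPM in WT1 to WT4. Every RT library was above every WT library for Tnfrsf4. The costimulator gene Icos rose by 1.43 ± 0.32 and Tnfrsf1b, a TNF receptor gene, by 1.02 ± 0.24. Il18r1, an interleukin 18 receptor chain, fell by 1.30 ± 0.26 on the log2 scale, but was at 0.95 in the shallow libraries alone and without RT1. Of 18 genes known as NF-kB targets 5 rose, 2 fell and 11 did neither. Those that rose were Cxcl10 (1.95 ± 0.44), a chemokine, Gadd45b (1.43 ± 0.33), a stress sensor, Bcl2a1d (1.33 ± 0.24), a survival gene, Cd83 (1.22 ± 0.29) and the adhesion molecule gene Icam1 (1.02 ± 0.23). Myc and the cyclin gene Ccnd2 fell by 1.56 ± 0.24 and by 0.87 ± 0.13 on the log2 scale. Bcl2a1d shares near-identical sequence with its family members, so the split of reads among them is uncertain. The cytokine genes Il2 and Csf2 of this list were listed at 0 in every library. Calls in these lists were lost on leaving out a single library other than RT1 for Tank, Otulin, Icos, Tnfrsf1b, Cd83, Gadd45b, Cxcl10 and Egr2. For Tank they were RT2, RT3, WT3 and WT4, for Otulin, Icos and Tnfrsf1b they were RT3, WT3 and WT4, for Cd83 WT3, for Gadd45b RT3, for Cxcl10 WT2, and for Egr2 each but WT1. Without WT2, Gadd45b was at 0.93, Egr2 at 0.65 and Cxcl10 at 1.38. In the fit on RT2, RT3, WT3 and WT4 only, Zap70, Tank, Icos, Tnfrsf1b, Tnfrsf4, Cxcl10 and Hspa1a were called higher and Rasgrp1 lower. The other genes of these lists that rose or fell were not called there. Without RT1 the values were 0.72 for Malt1, -1.75 for Map3k14, -0.61 for Myc, -0.45 for Ccnd2, 0.75 for Gadd45b, 0.78 for Cd83, 0.59 for Dusp1, 3.93 for Cxcl10 and 5.65 for Hspa1a.

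**Figure D5:**
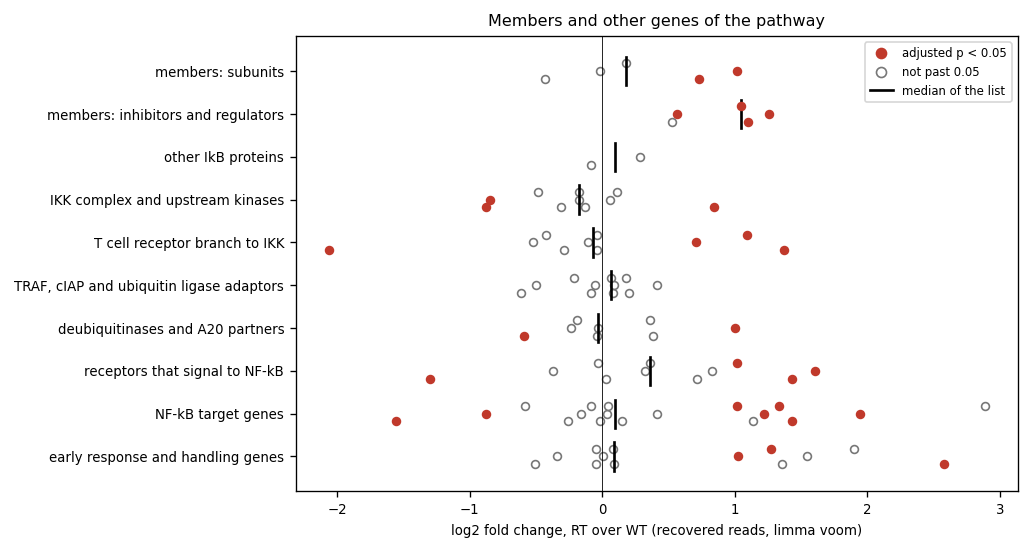
Log2 fold change of RT over WT on recovered reads (horizontal axis) for each tested gene of the 10 members and of the 8 other lists (rows), filled where the adjusted p is under 0.05, with a bar at the median of each list. The inhibitors and regulators have a median of 1.04, and the medians of the other lists lie between -0.17 and 0.36.

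By their profile over the 7 libraries, centred within each set, Nfkb2, Tnfaip3 and Nfkbiz were most like the mean of the 10 genes, with Pearson r of 0.957, 0.945 and 0.913, to which each contributes. Nfkb1 had an r of -0.726 with that mean and Rela of -0.041. Outside all lists, the genes most like that mean among 5678 were Osbpl3 (r = 0.991), Tox2 (0.989), Slamf6 (0.984), C3 (0.982) and Capns1 (0.976). Tox2, a nuclear factor of follicular helper T cells, stood at 242, 218 and 162 RPM in RT1 to RT3, against 57.6, 30.2, 76.1 and 18.5 RPM in WT1 to WT4, so that every RT library was above every WT library. These are correlations over 7 points that share libraries and depth and were picked as the highest of many, so they are a description.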

How the data were processed

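CD4+ cells were sorted from spleen by flow cytometry and libraries were made with an Illumina TruSeq v2 kit, per the labels' protocols. The authors deposited 1 table of RPKM values with 7 columns, matched to the labels by name. The submitters' processing notes name mm10; the aligner, counting tool and gene models: not given in the sources used here. The series text counts each sample as 1 mouse.

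Reads were recovered as RPKM times gene length times library total. Totals came from the steps of the values with GENCODE M21 exon lengths, at which 78.9% to 83.8% of values under 100 reads were whole within 0.01 reads. Of 13859 genes above 0, 13025 gave whole reads at 1 length within 0.003 reads, all members among them, and 834 needed a length per set. Depth ranged from 96457 to 11029129 recovered reads, 47.8% to 91.6% of the totals. A gene with 0 reads may stand at up to 0.272 to 31.1 RPM (3 reads), and intervals cover counting error only. The labels list WT3 and WT4 as 2 samples, and they count as 2 here. Their reads differed beyond sampling noise (chi-square p = 1.27e-10 over 2354 genes), with a chi-square of 1.20 per degree of freedom. For RT2 and RT3 that value was 3.05 over 2170 genes. Such a difference does not show that 2 libraries come from 2 mice.

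The planned test was limma 3.58.1 in R 4.3.3 on log2(RPKM + 1), for genes at 1 RPKM or more in 3 or more libraries, with genotype and library set as terms; its fold changes understate those of low genes. The second was limma voom on recovered reads, for genes with 10 or more reads over the shallow libraries, with the same terms. P-values are two-sided, adjusted by Benjamini-Hochberg over all genes tested, with a threshold of 0.05. Both were run on simulated counts with the same spread beyond counting error for all genes and libraries. The shallow pairs of libraries differed in that spread, so these runs do not show how well either test does on these data. The members, lists and tests were chosen with earlier results of these data known. The 10 members are named whatever their values; of each list, the genes past the threshold on reads, otherwise the 2 of smallest p; and the 5 genes of most similar profile, leaving out predicted genes and receptor segments. Alternatives changed the pseudocount (0.1 or 5), filter, scaling, terms and libraries.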

Additional observations from a re-analysis of the deposited data

Results flagged for a closer look

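Rela in WT3, at 238 RPM, lay farther above the other WT libraries (150 to 157 RPM) than expected of 4 values by Dixon's criterion, which flags about 1 group in 20 by chance. The value rests on 25 reads, and its exact 95% Poisson interval reaches down to 154 RPM. Without WT3 the log2 fold change of Rela on reads was 0.02.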

How the results depend on the processing

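The test on log2(RPKM + 1) called 0 of the 10 members under every alternative run. Over all genes it called 21 higher and 5 lower. These became 4 and 0 at a pseudocount of 0.1, 4 and 1 without the library set term, 0 and 0 without the filter, in the deep libraries alone or with WT3 and WT4 averaged, and 5 and 38 in the shallow libraries alone, where 2 genes of the pathway lists were called higher. Leaving out 1 library at a time gave 0 to 168 higher and 0 to 278 lower, and 0 to 7 higher and 0 to 2 lower in the pathway lists.

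On reads the 555 higher and 484 lower calls became 312 and 211 without the set term, 343 and 177 in the deep libraries and 186 and 250 in the shallow ones. The 6 members called became 3 without the filter, without the set term or with WT3 and WT4 summed, and 2 in either set alone. The pathway lists then had 10 higher without the set term, and 4 lower without the set term, without the filter or in either set alone, against 16 and 7. Leaving out 1 library gave 0 to 748 genes higher and 0 to 653 lower, 0 to 6 members higher and 0 to 1 lower, and 0 to 19 pathway genes higher and 0 to 10 lower. The cause of these changes was not tested. With 1 deep RT library, the deep fit assumes that it varies like the WT libraries.

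Directions turned for 4 genes. On log2(RPKM + 1), Rel was at 0.25 in the deep libraries, Rela at 0.071 without the set term and 0.041 in the deep libraries, and Relb at -0.31 in the shallow libraries. On reads, Rel was at -0.94, Relb at -0.36 and Il18r1 at 0.95 in the shallow libraries, and Rela at 0.016 in the deep ones. With 1 library left out, the range on log2(RPKM + 1) was -0.22 to 0.065 for Rela and -0.31 to 0.36 for Relb. On reads it was -0.94 to 0.32 for Rel, -0.23 to 0.019 for Rela, -0.36 to 0.79 for Relb and -1.48 to 0.95 for Il18r1.

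The labels do not say whether equal replicate numbers pair the samples. The correlations of same-numbered deviations from the genotype means were 0.432, -0.179 and 0.184. They were not centred by library set, and RT1 and WT1 are both deep, RT2 is shallow and WT2 deep, and RT3 and WT3 are both shallow. They therefore cannot decide whether the samples were paired. With a replicate block the test on reads called 588 genes higher and 523 lower, 4 members and 13 and 7 pathway genes, and that on log2(RPKM + 1) called 0 and 0.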
